A study of Mus musculus with 6 samples.

Results

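The dual-specificity MAPK phosphatases examined here were Dusp1, Dusp2, Dusp4, Dusp5, Dusp6, Dusp7, Dusp8, Dusp10 and Dusp16, which are 9 of the 19938 genes measured. They were chosen by gene symbol and family, by a rule that uses no measured value but was written with earlier results of these data known, and all 9 had at least 1 array probe set that named no other gene. Expression was compared between 3 samples of RAW264.7 cells transfected with a miR-342-3p mimic and 3 samples transfected with a negative control mimic. RAW264.7 is an established mouse macrophage line, and a mimic is an RNA duplex made to supply a cell with the mature form of a microRNA. Both groups were of the same line, both carried a transfected mimic, no other agent or genetic change is given in the labels, and total RNA was isolated 18 h after transfection. Untransfected cells were not analysed here, so the comparison is between mimics. From each sample, 150 ng of RNA was amplified, labeled and hybridized to an Affymetrix whole-transcript mouse array. As each array averages a whole culture, a change in every cell and a larger change in some of the cells cannot be told apart. The labels only number the replicates, and a legend in the study refers to them as experiments done independently.

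MAP kinases (ERK, JNK and p38) are switched on when a MAP2 kinase phosphorylates a threonine and a tyrosine in their activation loop. Dual-specificity MAPK phosphatases remove both phosphates and so switch the kinases off, and many of their genes are themselves transcribed in response to MAPK signaling, which makes them part of a negative feedback loop. In macrophages they are known for ending the signaling that follows Toll-like receptor stimulation, and Dusp1 in particular limits p38 and JNK activity and the output of inflammatory cytokines.

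The transfected RNA is shown here with its seed, bases 2 to 8, in capitals, as given for the mature mouse microRNA by RefSeq on GRCm38.p6 (chr12:108658680-108658702, plus strand).
mmu-miR-342-3p: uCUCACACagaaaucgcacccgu
The array does not measure this 23-nt RNA itself. The probe set for the hairpin gene Mir342 read 5.36, 5.49 and 5.45 in the control samples and 6.10, 5.62 and 5.72 in the miR-342-3p samples. The groups did not overlap, but the difference of 0.38 did not pass the test (limma, FDR 0.105), and it does not report on the amount of mimic.

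Values are log2 expression levels after RMA normalization, and a change is the mean of the miR-342-3p samples minus the mean of the control samples on that scale. A gene was called where limma gave a false discovery rate (FDR), adjusted over all 19938 genes, under 0.1. By this rule 825 genes (4.14%) were called higher and 1479 (7.42%) lower with miR-342-3p, and 64.5% of all genes had a positive change, with a median of 0.07. Of the called genes 35.8% were thus higher, a share that was 22.8% after centering each array on its median and 56.2% after repeating the quantile normalization. The array medians lay between 6.80 and 6.95. The 3 control arrays were more alike (pairwise r of 0.998 to 0.999 across genes) than the 3 miR-342-3p arrays (0.991 to 0.993), and limma's array weights were 1.69 to 3.36 for controls and 0.235 to 0.925 for miR-342-3p arrays.

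The cell type was checked with marker genes. Of 11 macrophage markers, all lay above the median level of all genes (7.15). Their mean level ranged from 10.53 to 10.57 over the control arrays and from 10.28 to 10.51 over the miR-342-3p arrays. Csf1r, Cd68 and Adgre1 were not called, with changes of 0.05, -0.10 and -0.16. The myeloid transcription factor gene Spi1 rose by 0.35 (limma, FDR 0.0440), whereas Itgam, which encodes the integrin CD11b, fell by 0.35 (FDR 0.0643), and Fcgr1 and Cd84 were the other called markers, both lower. All 8 lymphocyte markers lay below the median level of all genes and none was called. Among 8 fibroblast and 6 epithelial markers, 5 and 4 lay below that median, and Pdgfra alone was called, higher by 0.49 (FDR 0.0315). The mean level of the fibroblast list was 6.54 to 6.61 in controls and 6.67 to 6.97 with miR-342-3p, that of the epithelial list 6.64 to 6.78 and 6.78 to 6.96, and that of the lymphocyte list 5.64 to 5.72 and 5.65 to 5.97. The part of these shifts in the results that follow was not tested.

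Dusp1, Dusp5 and Dusp10 rose with miR-342-3p, by 2.38-fold, 1.80-fold and 1.37-fold, and the other 6 phosphatase genes were not called. No member was called lower. The 3 of 9 called higher are set against 4.14% of all genes called higher, and the 0 of 9 called lower against 7.42%. The change was positive for 9 of 9 members, against 64.5% of all genes, with a median of 0.26 against 0.07. Dusp9, an ERK-selective phosphatase that is not among the members, went the other way, with a change of -0.20 that was not called. In 5 of 9 members every miR-342-3p sample lay above every control sample, which was so for 21.4% of all genes. All 9 members were expressed above the median level of all genes. When only the 9969 genes above that level were fitted, 1086 (10.9%) were called higher and 1952 lower, with a median change of -0.02. In that fit 4 members were called higher (Dusp1, Dusp4, Dusp5 and Dusp10) and none lower.

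**Figure D1:**
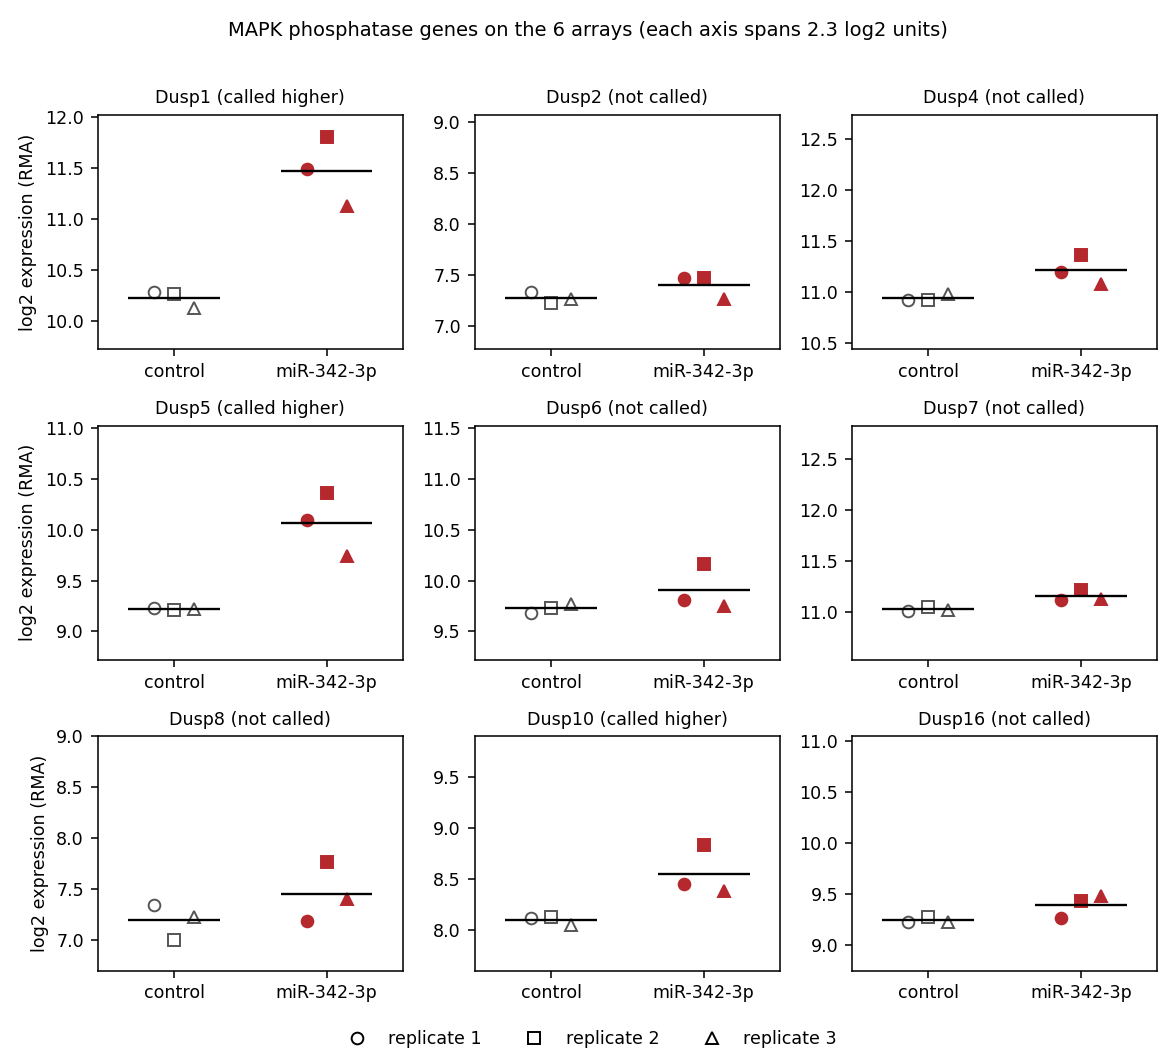
Log2 expression (RMA) of the 9 phosphatase genes on each of the 6 arrays, with open symbols for the control and filled symbols for the miR-342-3p samples, the replicate number as the shape of the symbol, and a horizontal line at each group mean. The vertical axes differ in level but span the same number of log2 units, so that heights can be compared: Dusp1 and Dusp5 show the widest separation, with miR-342-3p samples from 11.13 to 11.80 and from 9.74 to 10.36 above controls of at most 10.28 and 9.23.

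Among the inducible phosphatases of the nucleus, 2 of 4 rose. Dusp1 encodes MKP-1, the founding member of the family, an immediate early gene product that acts on p38, JNK and ERK. Its level was 10.28, 10.26 and 10.13 in the control samples and 11.49, 11.80 and 11.13 in the miR-342-3p samples. The lowest miR-342-3p value thus exceeded the highest control value by far more than the whole range of the controls. The group means were 10.22 ± 0.0804 and 11.48 ± 0.333 (SD, n = 3), a change of 1.25 with a standard error of 0.15 and a 95% confidence interval of 0.91 to 1.59 (limma, FDR 0.00855). Dusp5 encodes a nuclear phosphatase with a strong preference for ERK. It read 9.23, 9.21 and 9.22 in the controls, which were almost equal, and 10.09, 10.36 and 9.74 in the miR-342-3p samples, which were all higher. The means were 9.22 ± 0.011 and 10.06 ± 0.307 (SD, n = 3), and the change of 0.84 had a standard error of 0.14 and an interval of 0.53 to 1.16 (limma, FDR 0.0185).

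Dusp4 encodes MKP-2, a nuclear relative of MKP-1 that acts on ERK and JNK. It read 10.92, 10.92 and 10.98 in controls and 11.20, 11.37 and 11.08 with miR-342-3p. The groups did not overlap, but the change of 0.27 (interval 0.07 to 0.48, limma FDR 0.110) narrowly missed the threshold. Without miR-342-3p replicate 3, the lowest of its group, the change was 0.34 and the FDR 0.0437, whereas without miR-342-3p replicate 2 the change was 0.20 and the FDR 0.127, and without 1 of the control replicates the FDR was 0.274 to 0.321. Dusp2 encodes PAC-1, an inducible nuclear phosphatase of hematopoietic cells. It read 7.33, 7.22 and 7.26 in controls and 7.47, 7.47 and 7.26 with miR-342-3p, so that replicate 3 of the miR-342-3p group lay within the control range. Its change of 0.13 had an interval of -0.06 to 0.33 (limma, FDR 0.344).

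Dusp6 and Dusp7 encode cytoplasmic phosphatases that are selective for ERK, and Dusp6 is widely used as a transcriptional readout of ERK activity. Neither was called. Dusp6 read 9.68, 9.73 and 9.77 in controls and 9.81, 10.16 and 9.75 with miR-342-3p. Replicate 2 stood alone above the rest, while replicate 3 lay within the control range, and the change of 0.18 had an interval of -0.07 to 0.44 (limma, FDR 0.317). Dusp7 read 11.01, 11.05 and 11.02 in controls and 11.12, 11.22 and 11.13 with miR-342-3p. These groups did not overlap, but the gap was small, and the change of 0.13 had an interval of -0.04 to 0.29 (limma, FDR 0.286). The upper ends of both intervals exclude a change of the size estimated for Dusp1 or Dusp5, although the difference between members was not itself tested.

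Among the phosphatases that prefer JNK and p38, 1 of 3 rose. Dusp10 encodes MKP-5, which is known to restrain JNK and p38 in immune cells. It read 8.12, 8.13 and 8.05 in controls and 8.45, 8.83 and 8.38 with miR-342-3p. The groups did not overlap, with means of 8.10 ± 0.0438 and 8.55 ± 0.241 (SD, n = 3), and the change of 0.45 had a standard error of 0.12 and an interval of 0.19 to 0.72 (limma, FDR 0.0618). The call was lost when control replicate 1, 2 or 3 was left out, with changes of 0.46, 0.47 and 0.43 and an FDR of 0.202, 0.193 and 0.219. It was also lost after centering the arrays on their medians, with a change of 0.42 and an FDR of 0.118.

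Dusp8 encodes a JNK-directed phosphatase best known from brain and heart. It read 7.35, 7.00 and 7.23 in controls and 7.19, 7.77 and 7.40 with miR-342-3p, and the groups overlapped. Its change of 0.26 had an interval as wide as that of Dusp1, from -0.09 to 0.60 (limma, FDR 0.298). A further probe set for this gene, not used by the selection rule, gave a change of 0.28 with an FDR of 0.116. Dusp16 encodes MKP-7, a phosphatase that shuttles out of the nucleus and acts mainly on JNK. It read 9.23, 9.28 and 9.23 in controls and 9.27, 9.43 and 9.48 with miR-342-3p. Replicate 1 lay within the control range, and the change of 0.15 had an interval of -0.04 to 0.33 (limma, FDR 0.279).

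**Figure D2:**
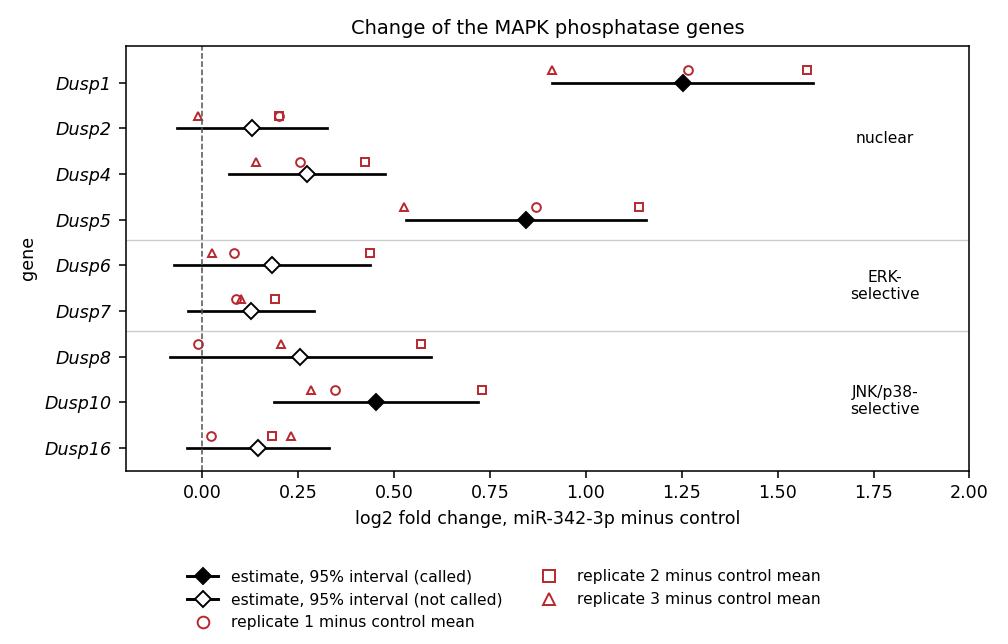
Change in log2 expression (miR-342-3p minus control) of each phosphatase gene, with diamonds for limma's estimate, horizontal lines for the 95% confidence interval and small symbols for each miR-342-3p replicate minus the control mean. Filled diamonds, those of Dusp1, Dusp5 and Dusp10, mark genes called at an FDR under 0.1, and the squares of replicate 2 lie farthest to the right in 8 of 9 genes.

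The miR-342-3p samples differed in the size of the change. Relative to the control mean, replicate 2 showed the largest change in 8 of 9 members, Dusp16 being the exception, and replicate 3 showed the smallest in 6. Replicate 2 was also the largest in genes outside the family, such as Ier3, Fosl1 and Nr4a2. It was not so in all, as Egr4 changed most in replicate 1. The share over all genes was not counted, and the array of replicate 2 had the lowest median, 6.80. The median change of the members was 0.20 in replicate 1, 0.44 in replicate 2 and 0.21 in replicate 3. For Dusp1 the changes were 1.27, 1.58 and 0.91, for Dusp5 0.87, 1.14 and 0.53, and for Dusp10 0.35, 0.73 and 0.28. The change was positive in every replicate for 7 members, with Dusp2 in replicate 3 and Dusp8 in replicate 1 each at -0.01. Without replicate 2 the changes were 1.09 for Dusp1, 0.70 for Dusp5 and 0.32 for Dusp10, and all 3 genes were still called.

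Promoter sequence was examined because several of these genes are known to be induced through response elements close to the start of transcription. RefSeq promoter windows on GRCm38.p6 were given for 8 of the 9 members, with Dusp4 as the missing entry. The 250 bases before the start were searched on both strands for the cAMP response element TGACGTCA, its core TGACG, which lies within the full element, the AP-1 site TGAGTCA, the E-box CACGTG and the CArG box, the site bound by serum response factor. The stretches of Dusp1 and Dusp5, which changed most, and of Dusp8, which was not called but holds the same element as Dusp1, are shown 5′ to 3′ on the strand of the gene, with the motifs in capitals.
Dusp1, chr17:26508581-26508675, minus strand, a full cAMP response element, a further core and an E-box: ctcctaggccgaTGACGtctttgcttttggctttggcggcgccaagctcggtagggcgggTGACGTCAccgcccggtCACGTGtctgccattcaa
Dusp5, chr19:53529051-53529106, plus strand, a pair of adjacent CArG boxes and a core on the opposite strand: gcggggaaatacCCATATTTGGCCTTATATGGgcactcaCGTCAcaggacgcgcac
Dusp8, chr7:142095328-142095403, minus strand, a pair of full cAMP response elements: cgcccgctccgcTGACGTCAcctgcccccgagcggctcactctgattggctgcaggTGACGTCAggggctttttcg
The full element was found in 2 of 8 member windows, Dusp1 and Dusp8, and in 1.55% of the 32851 promoter windows of the same length. The core was found in 4 of 8, against 17.8% of all windows, the E-box in Dusp1 and Dusp2, against 6.02%, and the CArG box in Dusp5 alone, against 1.47%. The AP-1 site was found in 0 of 8 member windows and in 4.46% of all windows. The windows of Dusp6, Dusp7 and Dusp10 held none of these motifs. A match is a description of sequence and not a measured binding site, and Dusp8, whose window holds the full element at both positions shown, was not called.

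The rest of the MAPK pathway was followed through 9 further lists with 125 measured genes. In them 16 genes were called higher, 10 lower and 99 not at all, with a median change of 0.05, close to the 0.07 of all genes. Most of the calls upward, 10 of the 16, were among the transcription factors and other early genes that MAPK signaling induces. Of the 10 calls downward, 7 were of kinases, RAS genes and adaptors, whose lists hold 12, 6, 17, 21 and 8 of the 125 measured genes. The 16 and 10 of 125 are set against 4.14% of all genes called higher and 7.42% called lower.

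**Figure D3:**
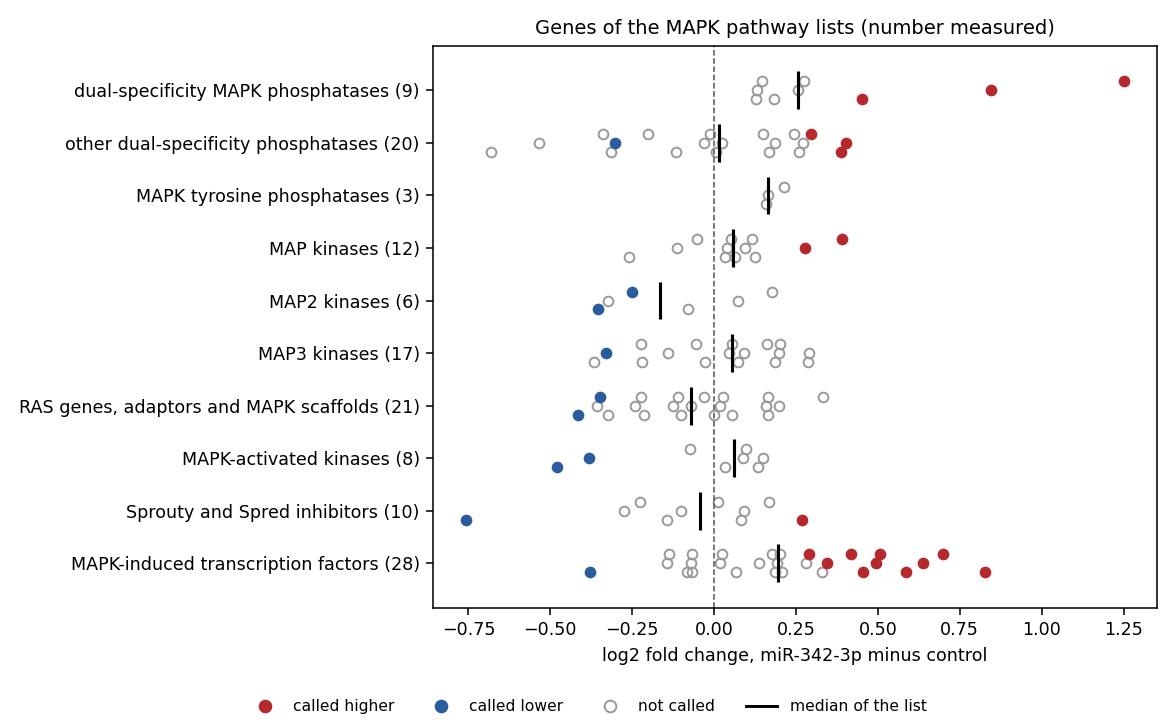
Change in log2 expression (miR-342-3p minus control) of each gene in the phosphatase list and in 9 further MAPK pathway lists, 1 circle per gene, with red for called higher, blue for called lower, open grey for not called and a black bar at the median of each list; vertical offsets within a row only separate the circles. The list of MAPK-induced transcription factors, with a median of 0.20, holds 10 of the 16 pathway genes called higher, and the MAP2 kinases have a median of -0.16.

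Of 28 MAPK-induced transcription factors and early genes, 10 were called higher and 1 lower, against 4.14% and 7.42% of all genes. The median change was 0.20, and in 16 of the 28 all miR-342-3p samples lay above all controls, against 21.4% of all genes. When only genes above the median level were fitted, 12 of these early genes were called higher and 1 lower. In that fit 10.9% of the 9969 genes were called higher. Ier3, an early response gene linked to cell survival, read 7.65, 7.68 and 7.75 in controls and 8.46, 8.75 and 8.35 with miR-342-3p, well apart. It rose by 0.83 (limma, FDR 0.0108). Of the AP-1 subunit genes, Fosb rose by 0.70 (FDR 0.0306) and Fosl1 by 0.59 (FDR 0.0246), and Nr4a2, an orphan nuclear receptor, rose by 0.64 (FDR 0.0197). The others called higher were Fos (0.51), Ier5 (0.49), Klf4 (0.46), Egr1 (0.42), Atf3 (0.34) and Nr4a3 (0.29). Nr4a3 had a low mean level, at percentile 15.7 of all genes. Jun, the most common partner of FOS proteins, was not called, with a change of -0.07. Etv5, an ETS factor known as an ERK target, fell by 0.38 (FDR 0.0760). Its relative Etv4 was not called, with a change of -0.14. The count of 10 higher fell to 1, 1 and 2 without control replicate 1, 2 or 3, to 6 without miR-342-3p replicate 1, and rose to 14 without miR-342-3p replicate 3.

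The remaining dual-specificity phosphatases, most of which are not dedicated to MAP kinases, had calls in both directions. Of 20 genes 3 were called higher and 1 lower, against 4.14% and 7.42% of all genes, with a median of 0.02. Dusp18, Dusp23 and Styxl1 rose by 0.40 (limma, FDR 0.0577), 0.39 (FDR 0.0928) and 0.30 (FDR 0.0928), and Dusp22, also known as JKAP, a modulator of JNK signaling, fell by 0.30 (FDR 0.0890). Dusp18 and Styxl1 lay below the median level of all genes, at percentiles 48.6 and 35.2. Dusp9, which encodes the remaining cytoplasmic ERK-selective phosphatase, MKP-4, was placed on this list. It read 8.99, 9.06 and 9.01 in controls and 8.82, 8.92 and 8.73 with miR-342-3p. All its miR-342-3p values lay below the controls, but the change of -0.20 was not called (FDR 0.157). The 3 tyrosine phosphatases that dephosphorylate MAP kinases, Ptpn5, Ptpn7 and Ptprr, had changes of 0.16 to 0.21 and were not called.

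Among the substrates of the phosphatases, 2 of 12 MAP kinases rose and none fell. Over all genes 4.14% were called higher and 7.42% lower. Mapk11, which encodes p38β, read 7.37, 7.26 and 7.34 in controls and 7.75, 7.76 and 7.63 with miR-342-3p. The groups were clearly apart, and the gene rose by 0.39 (limma, FDR 0.0304). Mapk7, which encodes ERK5, rose by 0.28 (FDR 0.0685). Mapk14 and Mapk8, the genes of p38α and JNK1, were not called, with changes of -0.05 and -0.26.

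Upstream of the MAP kinases most genes were not called, and the few calls were lower, as were most of the calls over all genes (7.42% of genes lower and 4.14% higher). Of 6 MAP2 kinases 2 fell and none rose. Map2k1, which encodes MEK1, the activator of ERK, read 10.18, 10.09 and 10.15 in controls and 9.72, 9.89 and 9.75 with miR-342-3p. The groups did not overlap, and the gene fell by 0.36 (limma, FDR 0.0413). Map2k6, which encodes MKK6, an activator of p38, fell by 0.25 (FDR 0.0973). Its mean level was below the median of all genes, at percentile 34.8. Of 17 MAP3 kinases only Map3k1, which feeds the JNK branch, was called, lower by 0.33 (FDR 0.0582). Of 21 RAS genes, adaptors and scaffolds 2 fell, namely Tab2, the adaptor of the kinase TAK1, by 0.42 (FDR 0.0355) and the RAS gene Nras by 0.35 (FDR 0.0793).

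Most downstream kinases and other feedback inhibitors were not called. Of 8 MAPK-activated kinases, with a median change of 0.06, 2 fell and none rose, against 7.42% of all genes called lower and 4.14% called higher. Rps6ka5, which encodes the histone kinase MSK1, fell by 0.48 (limma, FDR 0.0339) and Rps6ka3, which encodes RSK2, by 0.38 (FDR 0.0967). Of 10 Sprouty, Spred and related inhibitors of RAS signaling, 1 was called higher and 1 lower, against 4.14% and 7.42% of all genes. Spry3 rose by 0.27 (FDR 0.0987) at a low mean level, percentile 13.2 of all genes, and Rasa1 fell. Rasa1 encodes a GTPase-activating protein that turns RAS off. It read 9.32, 9.34 and 9.31 in controls and 8.61, 7.97 and 9.12 with miR-342-3p, a low replicate 2 and a replicate 3 near the controls. Its change of -0.76 (FDR 0.0947) was not called without any 1 control replicate (FDR 0.235 to 0.255) or without miR-342-3p replicate 1 (FDR 0.186), and was -0.46 without replicate 2. Over all 9 pathway lists the 16 calls higher and 10 calls lower became 1 and 0 if control replicate 1 or 2 was left out, 2 and 0 in the absence of control replicate 3, and 27 and 22 without miR-342-3p replicate 3. The calls higher were 9 without miR-342-3p replicate 1.

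The phosphatase genes kept a positive change under every alternative that was run, and the calls of Dusp1 and Dusp5 held in all of them but 1. Dusp1 changed by 1.09 to 1.42 and Dusp5 by 0.70 to 1.00 over 17 settings, and each was called in 16. Dusp5 lay just under the threshold without control replicate 1, 2 or 3 (limma, FDR 0.0997, 0.0998 and 0.0894). For Dusp1 the FDR was at most 0.0517 when 1 array was left out. The exception was the methods' t-test after Benjamini-Hochberg adjustment, which gave an FDR of 0.128 for Dusp1 and 0.154 for Dusp5 and called 26 genes higher and 22 lower in all. This test has no moderated spread, and the study names it for comparisons of groups in general and used limma for its arrays. Dusp10 changed by 0.32 to 0.54 and was called in 11 of 17 settings, and Dusp4 in 5.

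**Figure D4:**
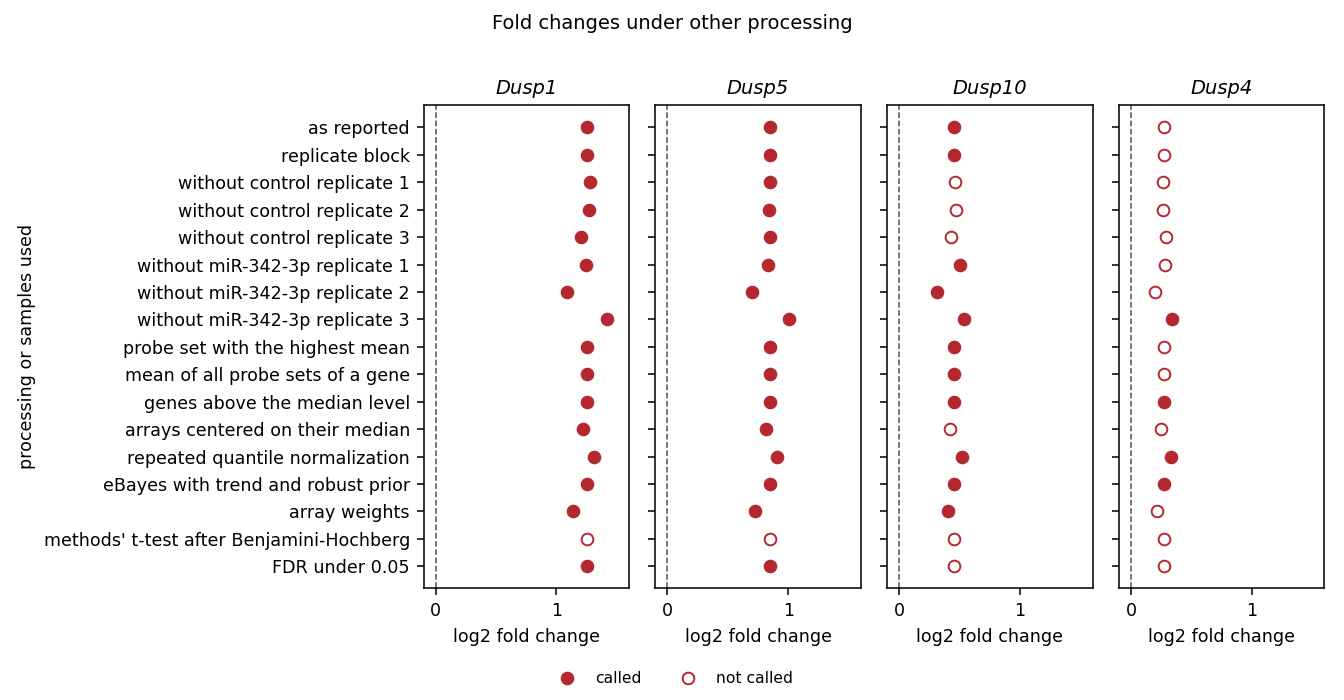
Change in log2 expression (miR-342-3p minus control, horizontal axes) of Dusp1, Dusp5, Dusp10 and Dusp4 as reported and under 16 other choices of samples or processing, listed down the side, with filled circles for called and open circles for not called. Dusp1 and Dusp5 stay called in all but the methods' t-test after Benjamini-Hochberg, Dusp10 is lost without any 1 control replicate, and every circle lies to the right of 0.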

How the data were processed

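The log2 values were made by the authors from the array scans with RMA (background correction, quantile normalization and summarization; version not given in the sources used here) and deposited for 35556 probe sets on each of 6 arrays, whose small number sets the precision. The platform annotation gave 1 gene to 21789 probe sets, several to 1621 and listed none for 12146. For 21698 probe sets with 1 gene, the Entrez ID matched the RefSeq gene table of GRCm38.p6. Of 999 genes with several probe sets, the one with the largest interquartile range was used, as in the methods of the study. The 19938 genes were fitted with lmFit and eBayes of limma 3.58.1 in R 4.3.3, without a filter on level and without a replicate block (prior 4.79 and residual 4 degrees of freedom), and p-values were adjusted by Benjamini-Hochberg.

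The members and the gene lists were chosen with earlier results of these data known. Named were all 9 members and, from each pathway list, up to 4 called genes in the direction of most calls and up to 2 in the other, all called MAP kinases, and fixed macrophage markers. Dusp9, the tyrosine phosphatases, Mapk8, Mapk14, Fos, Ier5, Klf4, Egr1, Atf3, Nr4a3, Jun, Etv4, Fcgr1, Cd84, Pdgfra and Mir342 were named after their values were seen. No pair of arrays held identical values. The steps were tested on simulated data. Alternatives were the replicate block, each array left out, other probe sets, scalings, priors, weights, tests and thresholds. Figures were drawn with matplotlib 3.10.9 in Python 3.11.15.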

Additional observations from a re-analysis of the deposited data

How the results depend on the processing

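All 9 members had a positive change under every alternative run, though several alternatives cannot alter the change itself. The 3 members called higher became 6 after repeated quantile normalization (Dusp1, Dusp4, Dusp5, Dusp8, Dusp10 and Dusp16), which called 9.16% of all genes higher. They became 5 with the methods' t-test at an unadjusted p under 0.05 (Dusp1, Dusp4, Dusp5, Dusp7 and Dusp10), which called 10.4% of all genes higher. They became 0 with the methods' t-test after Benjamini-Hochberg, which called 26 genes higher and 22 lower in all. Their number was 2 to 4 when 1 array was left out and 2 at an FDR under 0.05 (Dusp1 and Dusp5), and 0 members were lower under any alternative. The pathway genes called higher, 16 as reported, ranged from 1 to 27 when 1 array was left out, and were 8 with centered arrays, 7 at an FDR under 0.05 and 0 with the methods' t-test after Benjamini-Hochberg. Those called lower, 10 as reported, ranged from 0 to 22 when 1 array was left out, and were 17 among genes above the median level, 3 at an FDR under 0.05 and 0 with the methods' t-test after Benjamini-Hochberg. Over all genes, 825 higher and 1479 lower became 408 and 1379 with centered arrays, 1826 and 1422 after repeated quantile normalization, 88 to 100 and 102 to 140 without 1 control array, and 2104 and 2422 without miR-342-3p replicate 3. Among the named markers that were not called, Csf1r ranged from -0.003 (without miR-342-3p replicate 2) to 0.08 and Adgre1 from -0.323 to 0.056 (without miR-342-3p replicate 1) when 1 array was left out, and Adgre1 was 0.002 with array weights, so that both changed sign. The causes were not tested. The next counts cover the genes named by the rule above that are not members, these 2 markers included. Of their values 284 kept direction and call, 133 kept only the direction, 1 became a call and 3 changed sign. Genes named after their values were seen are not in these counts, and no alternative was listed for them gene by gene.

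Samples with the same replicate number did not deviate together (r of -0.308, -0.163 and -0.106 across genes), so the numbers were not taken as pairs. With the replicate number as a block, 3 members were called higher, again Dusp1, Dusp5 and Dusp10, and 550 genes were called higher and 1445 lower in all. Dusp10 had an FDR of 0.0349 in that fit.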
